A study of Rattus norvegicus with 24 samples.

Results

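The genes described here are 10 members of the circadian clock and its output: Arntl (written Bmal1 in the platform annotation), Clock, Per1, Per2, Per3, Nr1d1, Nr1d2, Bhlhe41, Dbp and Tef. They were found by symbol: every probe set that the array annotation assigns to a single symbol of the list was taken, which gave 19 of the 31099 probe sets and 10 of the 14218 genes with a single symbol. The list itself was chosen by the deposited signals of dehydrated against control arrays in these same data, so the dehydration response of the 10 genes is given below as a description, without a test. The RNA came from the supraoptic nucleus of Sprague Dawley rats, a hypothalamic nucleus of large neurons that secrete vasopressin and oxytocin, and each array held a pool of 5 rats. The female set had 4 arrays of euhydrated controls and 4 arrays used here of rats without water for 72 hours, with food freely available. The male set, of rats aged 10 to 12 weeks, had 5 control arrays and 5 arrays of rats dehydrated for 3 days. No age is given for the females, the labels name no transgene or drug in any group, and the time of day at which tissue was taken is not given in the sources used here. Sex, RNA extraction, labelling and software all differ between the sets, so levels are compared only within a set.

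In the mammalian clock, the proteins of Arntl and Clock pair on E-box DNA elements and switch on the Per and Cry genes, whose products return to block that pair. The same pair drives Nr1d1 and Nr1d2, nuclear receptors that repress Arntl, and Bhlhe41, a repressor that competes for E-boxes. It also drives Dbp, which with Tef and Hlf forms the PAR bZIP family of transcription factors that carry the rhythm to D-box elements in output genes. The loop runs in neurons and glia of most brain regions and is set by the suprachiasmatic nucleus, which lies near the supraoptic nucleus.

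The promoters of the members are shown because the members differ in which clock elements lie next to their start sites. The 250 bases before each start site were read from RefSeq (build GRCr8), which held all 10 genes, with 2 start sites each for Nr1d1 and Clock. Both strands were searched for the E-box CACGTG, the D-box TTANGTAA, the cyclic AMP element TGACGTCA and the ROR and Nr1d element TAGGTCA. These 5 windows were the only ones of the members with a match, shown in capitals, 5′ to 3′.
Tef, chr7:115206577-115206826, plus strand: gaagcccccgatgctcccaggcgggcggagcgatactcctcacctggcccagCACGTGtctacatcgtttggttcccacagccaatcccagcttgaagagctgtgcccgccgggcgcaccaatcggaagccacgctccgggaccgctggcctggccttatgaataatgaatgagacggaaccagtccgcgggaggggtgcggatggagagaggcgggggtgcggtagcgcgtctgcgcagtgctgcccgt
Nr1d1, chr10:84229455-84229704, minus strand: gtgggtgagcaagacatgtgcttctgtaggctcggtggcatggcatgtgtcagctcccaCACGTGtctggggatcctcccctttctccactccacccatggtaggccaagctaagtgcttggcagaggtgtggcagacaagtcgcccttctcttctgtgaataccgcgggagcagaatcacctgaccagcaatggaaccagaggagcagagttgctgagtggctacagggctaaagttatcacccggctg
Bhlhe41, chr4:180569356-180569605, minus strand: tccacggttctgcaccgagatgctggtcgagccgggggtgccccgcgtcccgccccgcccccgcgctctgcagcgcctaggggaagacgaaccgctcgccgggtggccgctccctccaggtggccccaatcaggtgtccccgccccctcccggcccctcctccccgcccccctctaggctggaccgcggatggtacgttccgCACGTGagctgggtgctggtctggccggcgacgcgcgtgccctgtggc
Per2, chr9:99496994-99497243, minus strand: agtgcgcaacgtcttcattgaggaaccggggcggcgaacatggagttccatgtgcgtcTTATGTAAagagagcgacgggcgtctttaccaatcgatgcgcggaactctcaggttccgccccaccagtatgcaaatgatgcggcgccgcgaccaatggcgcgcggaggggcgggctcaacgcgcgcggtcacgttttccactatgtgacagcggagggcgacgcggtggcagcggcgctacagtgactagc
Arntl, chr1:176766078-176766327, plus strand: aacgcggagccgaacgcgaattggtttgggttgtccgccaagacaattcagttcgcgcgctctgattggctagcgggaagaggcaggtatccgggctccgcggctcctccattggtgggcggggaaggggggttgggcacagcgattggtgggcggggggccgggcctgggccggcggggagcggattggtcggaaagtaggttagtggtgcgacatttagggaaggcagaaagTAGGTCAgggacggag

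The E-box stood 198 bases before the start site in Tef, 191 bases before the second start site of Nr1d1 and 48 bases before that of Bhlhe41. Per2 had a D-box 192 bases upstream, and Arntl had a ROR and Nr1d element 16 bases upstream. Of 33469 promoter windows of this length, 5.59% hold the E-box, 2.04% the D-box, 1.59% the cyclic AMP element and 2.26% the ROR and Nr1d element. A match is a description of letters only. Dbp, Nr1d2, Per1, Per3 and Clock had none of the motifs in this window, and neither had the other start site of Nr1d1.

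Values are signals as deposited, on an array scale with a trimmed mean of about 100 and a median per array of 36.1 to 46.5 on the 18 arrays used. Fold changes set dehydrated against control arrays as log2(value + 32), after each array was set to a trimmed mean of 500, with the standard error of the limma fit; this scale understates the change of dim probe sets. The fit kept probe sets whose mean was above the 30th percentile, about a signal of 20.1 in females and 15.7 in males. By that filter 12 of the 19 probe sets, of 9 genes, were kept in females, and 13, of all 10 genes, in males. The vasopressin gene Avp read 3644 to 7666 on the 8 female arrays used and 4337 to 5928 on the male arrays. The fifth dehydrated female array was left out by the rule that defines the gene set: it read 50.6 for Avp, 2.59 for Xist, where the other female arrays read 462 to 694, and 242 for the Y-linked Eif2s3y, where they read at most 8.94. With it in the female fit the log2 fold changes were -1.0 ± 0.23 for Dbp, -0.67 ± 0.55 for Per3, -0.79 ± 0.17 for Nr1d2 and -0.93 ± 0.18 for Bhlhe41, and 0 member probe sets passed limma's threshold. The labels say that pools of a group may be biological and technical replicates, so errors show the spread between arrays. Where some arrays are technical replicates, that spread can be smaller than the spread between independent pools. The RNA is of bulk tissue, in which fewer cells of a type and less RNA per cell cannot be told apart.

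Dehydrated rats of both sets had lower signals of the clock output genes Dbp and Tef, of Per3, of both Nr1d receptors and of Bhlhe41, while Arntl, Clock and Per2 differed little between groups. Mean signals of the lower genes stood at 41.7% to 76.3% of the control mean in females and at 51.3% to 75.0% in males, each gene taken at its brightest probe set. The median log2 fold change of the kept member probe sets was -0.48 in females and -0.40 in males, beside -0.03 and -0.04 over all 21729 probe sets in each fit. In females 3 of 12 kept member probe sets passed limma's adjusted threshold as lower, of Dbp, Nr1d2 and Bhlhe41, where 1.19% of all probe sets did. In males 7 of 13 did, of 6 genes, where 9.37% of all did. The same 3 probe sets passed as lower in both sets, where 0.673% of all probe sets did. Because these contrasts chose the list, nothing is read from these counts. Over all probe sets limma called 384 higher and 258 lower in females and 1809 higher and 2035 lower in males; with arrays centred on their medians these splits became 348 and 114, and 2711 and 1091, while the member counts remained 3 and 7.

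**Figure D1:**
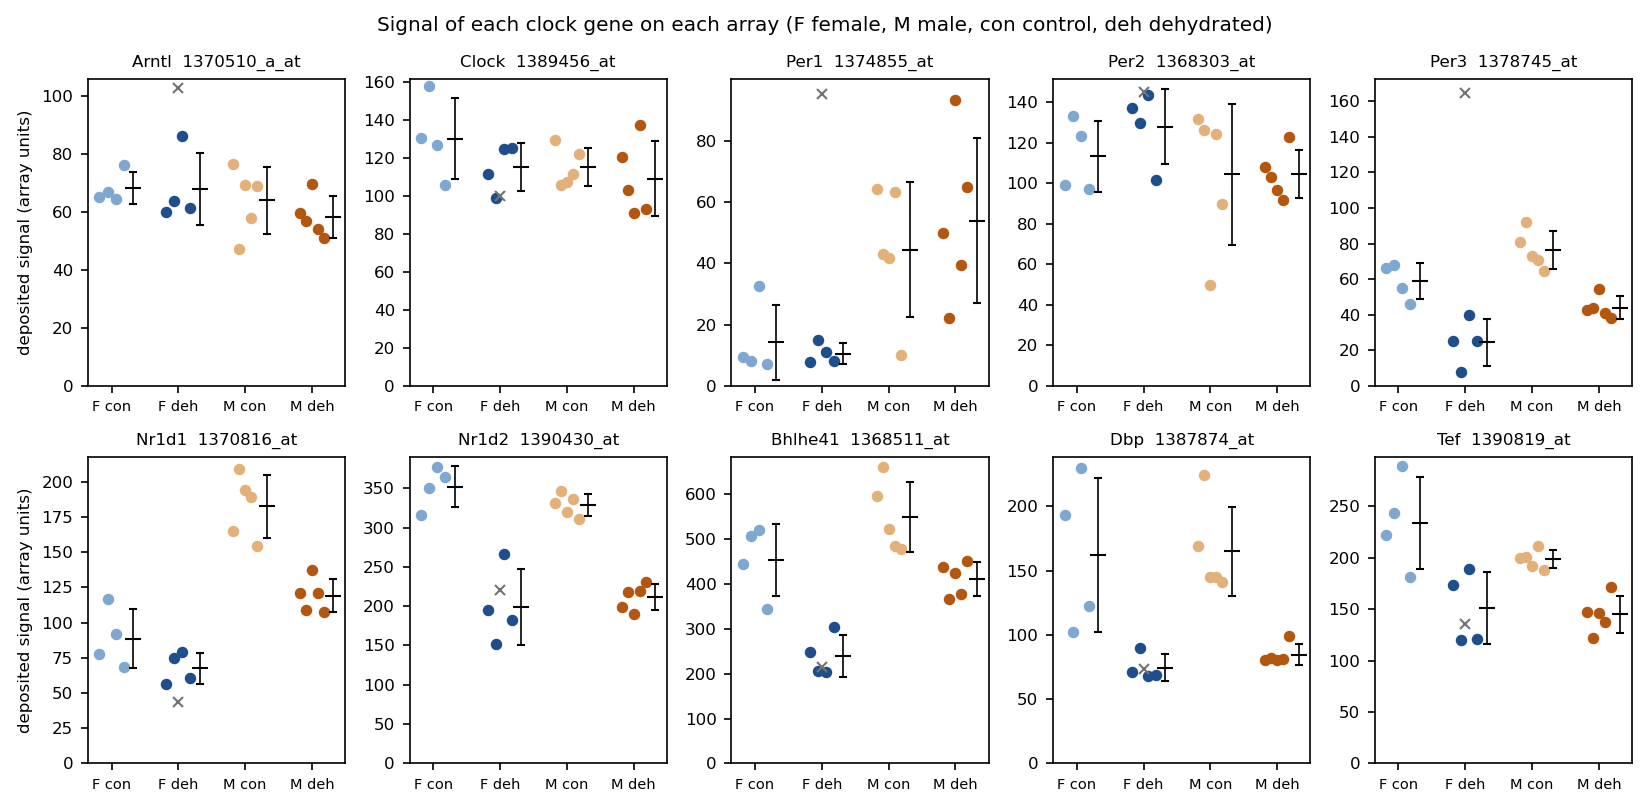
Deposited signal (vertical axis, array units, from 0) of the brightest probe set of each of the 10 clock genes on every array, by group; coloured points are arrays, black bars show the mean and SD, and the grey cross is the fifth dehydrated female array, which is not in the mean. Points of Per3, Nr1d2, Bhlhe41 and Dbp in the dehydrated groups all lie under those of their controls, while points of Arntl, Clock, Per1 and Per2 overlap.

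Among the output genes, Dbp encodes a PAR bZIP activator whose transcript swings widely over the day in many tissues. Its probe set 1387874_at read 193, 102, 230.0 and 122 on the female control arrays and 71.4, 90.1, 68.1 and 68.5 on the dehydrated ones. In males it read 169, 224, 145, 145 and 141 on control arrays and 80.7, 81.7, 80.1, 81.5 and 98.9 on dehydrated ones. The groups did not overlap in either set, and the control arrays spread far more widely than the dehydrated ones: the SD was 59.8 against 10.5 in females and 34.9 against 8.03 in males. The log2 fold change was -0.99 ± 0.22 in females (SE, n = 4 each) and -0.90 ± 0.12 in males (n = 5 each), a difference of -0.10 ± 0.25 between the sets. Leaving out 1 array at a time gave log2 fold changes from -1.18 to -0.81 in females and from -0.95 to -0.78 in males. Dbp passed limma's adjusted threshold in only 2 of these 8 female fits, and in 10 of the 10 male fits.

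Tef encodes another PAR bZIP activator and is read by 3 probe sets. The brightest, 1390819_at, gave 222, 243, 289 and 181 in female controls and 174, 120.3, 189 and 121 in dehydrated females, with an overlap of 1 array. In males it gave 199.6, 201, 192, 211 and 188 in controls and 148, 122, 146, 138 and 172 after dehydration, with no overlap. Its log2 fold change was -0.62 ± 0.18 in females and -0.44 ± 0.08 in males. The second probe set, 1385374_at, was dimmer and showed a smaller difference of -0.10 ± 0.22 in females, where the groups overlapped, and -0.24 ± 0.10 in males, where they did not. The third, 1369919_at, was under the filter in both sets, with group means between 9.65 and 20.8.

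Per3 is a Period gene whose product is not needed for the loop to run. Its kept probe set 1378745_at read 66.3, 67.9, 55.2 and 46.2 in female controls and 25.4, 7.89, 39.9 and 25.0 in dehydrated females. In males it read 81.1, 91.9, 73.2, 70.8 and 64.5 in controls and 42.6, 43.6, 54.7, 40.7 and 38.0 after dehydration. No dehydrated array reached its controls in either set, but the lowest female reading, 7.89, lies well under the filter level. The log2 fold change was -1.18 ± 0.31 in females and -0.72 ± 0.12 in males. The female value ran from -1.45 with an offset of 1 to -0.67 with the fifth dehydrated array included. Probe set 1388239_at of Per3 was under the filter, with no array used above 16.5.

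The Nr1d receptors bind heme and repress Arntl and many metabolic genes. Nr1d2 was read by 2 kept probe sets. The brighter, 1390430_at, read 316, 350.4, 377 and 364 in female controls and 195, 152, 266 and 183 in dehydrated females. In males it read 331, 346, 319.5, 336 and 311 in controls and 199, 218, 190.5, 219.8 and 230.3 after dehydration. These groups were far apart in males, where the gap between them, from 230.3 to 311, was larger than the range within either group. The log2 fold change was -0.83 ± 0.15 in females (-0.97 to -0.71 leaving out 1 array at a time) and -0.62 ± 0.07 in males (-0.65 to -0.59). Probe set 1370541_at gave a like difference, -0.78 ± 0.19 in females and -0.80 ± 0.08 in males, with 1 female control, at 175, below the highest dehydrated female array, at 192. The third probe set, 1370540_at, was under the filter, with group means of 5.84 to 8.74.

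Nr1d1 had 1 probe set, 1370816_at, whose groups overlapped in females and not in males. It read 77.9, 116, 91.9 and 68.2 in female controls and 56.2, 75.0, 78.8 and 60.4 in dehydrated females, so 2 dehydrated arrays lay above the lowest control. In males it read 165, 209, 194, 189 and 154 in controls and 121, 109, 137, 121 and 108 after dehydration, without overlap. The log2 fold change was -0.35 ± 0.17 in females (-0.45 to -0.21 leaving out 1 array at a time) and -0.59 ± 0.09 in males (-0.64 to -0.54). The difference between the effects was 0.24 ± 0.19, which limma did not call.

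Bhlhe41, the E-box repressor also called Dec2, was read by 1368511_at. Its signals were 443, 507, 519 and 344 in female controls and 248, 205, 202 and 303 in dehydrated females. In males they were 595, 659, 523, 484 and 478 in controls and 436, 367, 424, 376 and 451 after dehydration. Neither set overlapped, although in males the highest dehydrated array, at 450.9, came close to the lowest control, at 478. The log2 fold change was -0.90 ± 0.16 in females and -0.40 ± 0.09 in males. The effects of the sets differed by -0.50 ± 0.19, which limma did not call.

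**Figure D2:**
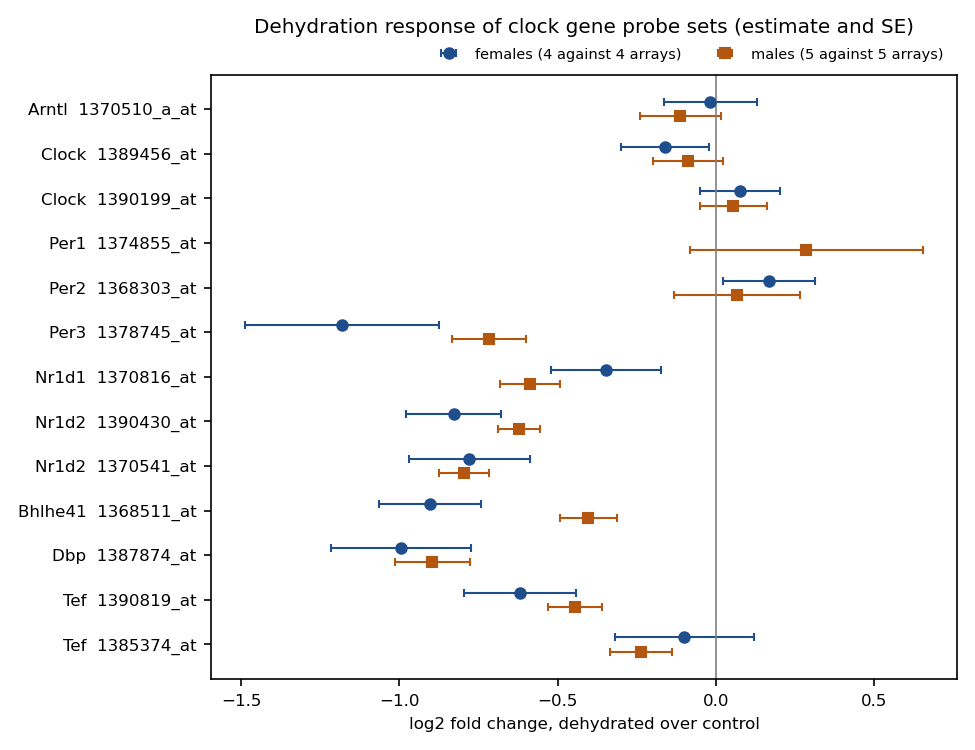
Log2 fold change of dehydrated over control arrays (horizontal axis) for the 13 clock gene probe sets kept in the male fit, in females (blue circles, 4 against 4 arrays) and males (orange squares, 5 against 5 arrays), with bars of 1 SE; Per1 was under the filter in females. Per3, Nr1d1, Nr1d2, Bhlhe41, Dbp and the brightest Tef probe set lie left of 0 in both sets, and Arntl, Clock and Per2 lie within 0.17 of 0.

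The activating limb showed no such difference. Arntl, read by 1370510_a_at, gave 64.9, 66.8, 64.5 and 76.2 in female controls and 59.9, 63.7, 86.2 and 61.3 in dehydrated females. In males it gave 76.6, 47.0, 69.2, 57.9 and 68.8 in controls and 59.4, 56.7, 69.7, 54.2 and 51.1 after dehydration. The groups overlapped in both sets, and the log2 fold change was -0.02 ± 0.15 in females and -0.11 ± 0.13 in males. Like those of the other members, these values are descriptions, and a small difference cannot be told from none.

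Clock, the partner of Arntl, had 4 probe sets, of which 2 were kept. Probe set 1389456_at read 131, 158, 127 and 106 in female controls, 112, 99.3, 125 and 125 in dehydrated females, 106 to 129.6 in male controls and 91.4 to 138 in dehydrated males. Its log2 fold change was -0.16 ± 0.14 in females and -0.09 ± 0.11 in males. The other kept probe set, 1390199_at, pointed slightly the other way, at 0.08 ± 0.13 and 0.06 ± 0.11. The remaining 2, 1369168_a_at and 1380098_at, read at most 13.8 on any array used and were under the filter.

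The Period genes Per1 and Per2, which respond to light and to cyclic AMP signals as well as to the clock, gave values near or above 0. Per2 (1368303_at) read 99.3, 133, 123 and 97.4 in female controls and 137, 129.7, 144 and 102 in dehydrated females, a log2 fold change of 0.17 ± 0.15. In males it read 132, 126, 49.9, 124 and 89.8 in controls and 108, 103, 96.5, 92.0 and 123 after dehydration, a log2 fold change of 0.07 ± 0.20. The groups overlapped in both sets, and without the low male control array, at 49.9, the male value was -0.16. Its other probe set, 1378560_at, read at most 18.4 and was not kept.

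Per1 (1374855_at) was poorly measured. In females it read 9.51, 8.03, 32.6 and 7.0 in controls and 7.93, 15.1, 11.0 and 8.09 after dehydration, under the filter. In males it read 64.1, 43.1, 41.7, 63.4 and 10.2 in controls and 50, 22.2, 93.3, 39.3 and 65.0 after dehydration, a spread wider than any difference between the groups, with a log2 fold change of 0.29 ± 0.37. That error is the largest of any kept member probe set, and the value turned to -0.08 without 1 of the arrays.

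Counted by overlap, 4 of the 12 kept probe sets in females had every dehydrated array below every control (Dbp, Per3, Nr1d2 and Bhlhe41), where 6.96% of all probe sets did. In males 8 of 13 did, those 4 genes with both Nr1d2 probe sets, Nr1d1 and both kept Tef probe sets, where 5.89% of all did. These counts use the contrast that chose the list and are descriptions too.

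Within the groups, where the dehydration contrast plays no part, the members did not move as a block from array to array. Deviations from the group mean were correlated over the 18 arrays for the 45 pairs of members, at their brightest probe sets. Arrays share their scaling, and the values are descriptions. Per1 enters these pairs although it was under the filter in females, so its female deviations are poorly measured. The median r was 0.19, from -0.44 for Arntl and Bhlhe41 to 0.63 for Per3 and Nr1d2. Dbp and Arntl had r = -0.43, and -0.31 and -0.66 in females and males alone. Dbp and Nr1d2 had r = -0.07, and -0.24 and 0.59 in females and males alone. For Dbp and Bhlhe41 the values were 0.33, 0.10 and 0.83. Nr1d2 and Arntl had r = 0.74 in females but -0.73 in males, so with 8 and 10 arrays the sign of a pair could turn between sets. It did so for 20 of the 45 pairs.

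The genes outside the list whose deviations were most like those of Dbp, of 11777 probe sets searched, were Zdhhc5 (r = 0.90), Szrd1 (0.90), Mfsd13a (0.88), Cdc37 (0.85) and Mypop (0.84), over 18 arrays. The most opposed were Gtf3c4 (-0.87), Rbfox2 (-0.83) and Zzz3 (-0.83). For Arntl they were Taf6l (0.85), Map2k1 (0.81), Slc16a1 (0.81), Atf6 (0.79) and Armc5 (0.79), with Mdp1 (-0.78), Phlda3 (-0.76) and Mrpl47 (-0.76) opposed. All these are the extremes of a search of 11777 probe sets over 18 arrays. No level reached by chance was computed, so they are descriptions only. None of the 5 genes most like Dbp had a dehydration response near its own: their log2 fold changes lay between -0.20 and 0.28 in females and between -0.32 and 0.40 in males.

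Other genes of the clock were taken from lists of the feedback loop, of clock kinases and protein turnover, and of clock-controlled output. Earlier results of these data were known when the lists were chosen, so their counts and p-values are descriptions too. Of 35 genes listed, 30 had a probe set, 27 were kept in females and 28 in males. By limma, adjusted over all probe sets kept, 2 rose and 1 fell in females and 2 rose and 4 fell in males, where 1.77% of all probe sets were called higher and 1.19% lower in females, and 8.33% higher and 9.37% lower in males. For the difference between the 2 sets' effects limma called 0 of the 28 genes, where 0.0322% of all probe sets were called. Without adjustment, 8 of the 28 genes had p under 0.05, beside 2177 of all 21729 probe sets.

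In the feedback loop list, Hlf, the PAR bZIP relative of Dbp and Tef, fell in males with signals of 221 to 348 in controls and 144 to 198 after dehydration, by 0.71 ± 0.13 on the log2 scale (SE, n = 5 each; limma adjusted p = 0.00146), and passed in all 20 alternative fits. In females its value was -0.37 ± 0.12 (n = 4 each; limma adjusted p = 0.119). Nfil3, which represses through the same D-boxes that the PAR bZIP proteins activate, rose in males by 0.50 ± 0.13 (limma adjusted p = 0.016), with signals of 23.2 to 37.6 in controls and 37.0 to 46.9 after dehydration, with 1 array of overlap, and read 0.29 ± 0.18 in females (limma adjusted p = 0.429). Rora, a nuclear receptor that activates Arntl, fell in males by 0.48 ± 0.15 (limma adjusted p = 0.0336), with dim signals of 29.5 to 40.6 in controls and 16 to 27.7 after dehydration, and that call was lost in 10 of 19 alternative fits. The female value, 0.18 ± 0.34, is from another probe set of the gene. In females limma called 0 of the 8 kept genes of this list, or 1 up and 2 down with p under 0.05 before adjustment. Of all 21729 probe sets, 4115 had such an unadjusted p in females, in either direction. The largest female value of this list was that of Cry1, a repressor of the Arntl and Clock pair, at 0.65 ± 0.18 (limma adjusted p = 0.0722), against 0.18 ± 0.10 in males.

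Kinases and turnover factors of clock proteins gave 0 calls of 9 genes in either set by limma. Without adjustment, at p under 0.05, 2 were higher and 1 lower in females, and none higher and 1 lower in males. Over all 21729 probe sets, 4115 in females and 6818 in males had such a p in either direction, so nothing is read from these counts. The largest values were 0.47 ± 0.17 for the kinase Gsk3b in females and -0.23 ± 0.14 for the deubiquitinase Usp2 in males.

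Of the clock-controlled output genes, Nampt, the rate-limiting enzyme of NAD salvage, went against the direction of Dbp. It rose in females with signals of 113 to 148 in controls and 239 to 304 after dehydration, by 1.07 ± 0.12 (n = 4 each; limma adjusted p = 0.00112), and in males with signals of 81.9 to 115 in controls and 169 to 253 after dehydration, by 1.00 ± 0.12 (n = 5 each; limma adjusted p = 5.4e-05). Cdkn1a, an inhibitor of cyclin-dependent kinases, rose in females by 0.97 ± 0.20 (limma adjusted p = 0.03), a call lost in 8 of 18 alternative fits, and read 0.41 ± 0.15 in males (limma adjusted p = 0.0754). Tspan4, a tetraspanin, fell in males by 0.75 ± 0.16 (limma adjusted p = 0.00558) and read -0.86 ± 0.21 in females (limma adjusted p = 0.0505). Tsc22d3, which glucocorticoids induce, fell in females by 0.53 ± 0.11 (limma adjusted p = 0.0314) and in males by 0.26 ± 0.08 (limma adjusted p = 0.0356); the call was lost in 9 of 18 and 10 of 20 alternative fits. The median log2 fold change of this list was 0.05 in females and -0.07 in males.

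**Figure D3:**
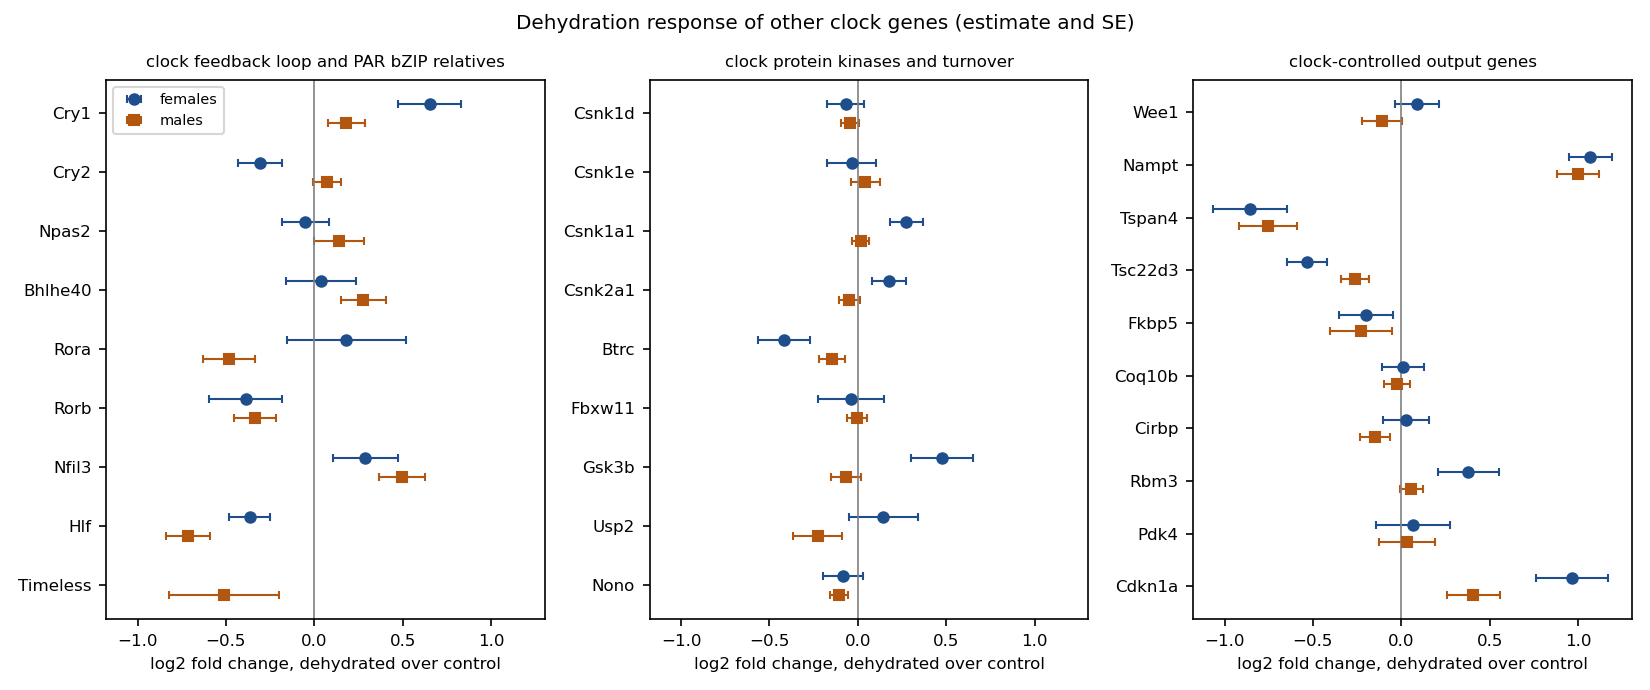
Log2 fold change of dehydrated over control arrays (horizontal axis, bars of 1 SE) for the kept genes of 3 lists of other clock genes, in females (blue circles) and males (orange squares); Rora, Rorb and Wee1 are read by different probe sets in the 2 sets. Nampt lies at 1.07 and 1.00 and Tspan4 at -0.86 and -0.75 in females and males, while the kinase and turnover genes lie within 0.47 of 0.

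Per1 and Per2 are also targets of glucocorticoids and of CREB, so both kinds of genes were read beside them. Of 11 kept glucocorticoid-induced genes 1 rose and 1 fell in females (Cdkn1a and Tsc22d3) and 1 fell in males (Tsc22d3), with median log2 fold changes of -0.17 and -0.07. Over all probe sets 1.77% were called higher and 1.19% lower in females, and 8.33% higher and 9.37% lower in males, so the male count of this list is near the background. Among CREB-driven immediate early genes, 3 of 7 kept rose in females and 3 of 8 in males, against the same shares of all probe sets, and they were the same 3 genes: Fos, Nr4a1 and Crem. Both lists were chosen with earlier results of these data known, so their counts and p-values are descriptions. Fos rose by 1.88 ± 0.22 in females and 1.94 ± 0.18 in males (limma adjusted p = 0.0012 and 7.4e-06), and Crem by 0.72 ± 0.12 and 0.83 ± 0.11 (0.0111 and 0.00014).

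Several lists of cell type markers moved with the groups, and their part in the lower clock transcripts was not tested. The mean log2 value of 14 mural cell and meninges markers ran from 10.28 to 10.73 on control and 9.83 to 10.05 on dehydrated female arrays (difference -0.55; 2-sided exact permutation test, adjusted p = 0.0643 over 9 marker lists). In males it ran from 10.64 to 11.67 and from 9.85 to 11.00 (difference -0.94; exact permutation test, adjusted p = 0.0429). Of these 14 markers, limma called 6 lower in females and 12 in males, where 1.19% and 9.37% of all probe sets were called lower. In females the other differences were 0.87 for 8 magnocellular, -0.69 for 11 oligodendrocyte, -0.30 for 8 microglia, -0.59 for 3 blood and 0.25 for 5 ependyma markers, with adjusted p from 0.0643 to 0.367 by the exact permutation test. With 4 arrays against 4 the smallest unadjusted p this test can give is 0.0286. In males, magnocellular markers were 0.94 higher, and microglia, blood and ependyma markers differed by -0.45, -0.55 and -0.59 (exact permutation test, adjusted p = 0.0357 for each). The marker lists were chosen with earlier results of these data known, so these values are descriptions. The magnocellular list holds genes of the nucleus's own neurons, among them Avp, Oxt, Creb3l1, Caprin2 and Rasd1, and does not measure their number. Astrocyte and endothelium markers differed by -0.12 and -0.00 in females and -0.15 and -0.09 in males, and oligodendrocyte markers by -0.17 in males.

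Tissue of the suprachiasmatic nucleus, where the same genes cycle strongly, was looked for by its own markers. The mean of the 5 markers kept in both sets ran from 7.97 to 8.56 on female control and 7.89 to 8.32 on dehydrated arrays (difference -0.06; 2-sided exact permutation test, adjusted p = 0.868). In males it ran from 7.68 to 8.14 and from 7.87 to 8.06 (difference 0.02; exact permutation test, adjusted p = 0.889). Vip, a defining peptide of that nucleus, read 24.6 to 45.9 on female and 19.6 to 32.5 on male arrays used, beside array medians of 36.1 to 46.5. The brightest markers of the list were Gpr176, at 145 to 189 on female and 98.3 to 159 on male arrays, and Rgs16, at 67.6 to 116 and 61.3 to 98.9. Of 6 kept markers in each set limma called none in females (1 lower at an unadjusted p under 0.05). In males it called Gpr176 higher, by 0.31 ± 0.10 (limma adjusted p = 0.0477). Of all 21729 probe sets, 4115 had an unadjusted p under 0.05 in females, in either direction, and 8.33% were called higher in males. Gpr176, Rgs16 and Vip were singled out after their values were seen. Of the 9 listed markers on the array none read 0 on an array used, and the lowest reading was 0.5, of Six6.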

How the data were processed

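Per the submitters' processing notes, the authors made the deposited signal intensities per probe set with MAS5 for females and GCOS 1.2 for males; each array averages near 100 once trimmed. The deposited table holds 31099 probe sets, 57 of them controls left out here. Each array was scaled to a trimmed mean of 500 (2% off each end), 32 was added, and log2 was taken. Probe sets above the 30th percentile were tested per set with limma 3.58.1 in R 4.3.3 (eBayes with trend, Benjamini-Hochberg, threshold 0.05), which was tested on simulated data. The simulated noise was independent between probe sets, so that check does not cover effects shared by all probe sets of an array. Depth has no counterpart on arrays; their number limits precision. The 5 lactation columns hold no value in the table used, and were not analysed here. A gene is read by its brightest probe set. The members and lists were chosen with earlier results of these data known. Named were all members, list genes past the threshold (or the largest where none passed), and the 5 most and 3 least like Dbp and Arntl. Alternatives covered normalization, offset, filter, weights, trend, a joint fit, a replicate block and leaving out arrays. P-values measure the spread between arrays, some of which may be technical replicates, so they can understate the spread between independent pools. The Benjamini-Hochberg values of marker means cover 9 lists per set.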

Additional observations from a re-analysis of the deposited data

Results flagged for a closer look

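Of 52 groups of member signals, 6 held an array that stood apart from the rest of its group by a gap large against the group's range; chance marks about 1 group in 20. They were Dbp on dehydrated female array 2 (signal 90.1) and dehydrated male array 5 (98.9), Per1 on female control array 3 (32.6) and male control array 5 (10.2), Nr1d2 probe set 1370541_at on male control array 5 (179.6), and Arntl on dehydrated female array 3 (86.2).

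The fifth dehydrated female array, which enters no comparison, read above every female control for 4 of the 12 kept member probe sets: Tef 1385374_at at 85.3, Per2 at 145, Per3 at 164 and Arntl at 103.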

How the results depend on the processing

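Leaving out 1 female array gave 211 to 881 called probe sets against 642, the fewest without control array 3, where 0 of the 3 member calls remained; 1 to 4 other clock genes were called against 3. With array weights females had 1704 calls and 7 other clock genes, without the mean-variance trend 290 and 1, in 1 fit of all groups 2321 and 9, and with the fifth dehydrated array 1 and 0 (1786 probe sets at an unadjusted p under 0.05). In males the joint fit called 2268 against 3844, leaving out 1 array 2841 to 4147 probe sets and 4 to 6 other clock genes against 6, and all fits called 7 member probe sets. Over all probe sets the male fits called from 1091 lower, with median centring, to 2357 lower, with array weights. The difference between the sets, 7 calls, became 19 by quantile normalization, 12 by median centring, 11 with an offset of 100, 2 without a filter, 114 with array weights, 0 with the fifth array (1707 unadjusted), and 1 to 55 leaving out 1 array. The replicate block over the males' title numbers gave 3616 calls, 5 other clock genes and 7 member probe sets. Deviations of same-numbered arrays correlated at -0.12 to 0.14, which shows no clear pairing in the values but cannot say how the pools were handled. No paired analysis was possible in females because the titles number their groups by different schemes. The female member calls changed with the setting: 5 with array weights or an offset of 100, 6 in the joint fit, 4 at the 50th percentile filter, and 2 without a filter or trend. Lower calls over all probe sets changed too, from 258 of 21729 in the main female fit. Array weights gave 875, an offset of 100 gave 287, the joint fit 1210 and no trend 98, also of 21729. The 50th percentile filter gave 321 of 15521, and no filter 193 of 31042. The causes were not tested.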
